A study of Mus musculus with 6 samples.

Results

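Invariant intragenic regions are stretches of open chromatin whose midpoint lies inside a protein-coding gene, more than 1 kb from its ends and from those of other genes, and that were found in every library of an ATAC-seq series on the embryonic mouse retina. ATAC-seq uses the Tn5 transposase to cut accessible DNA and add sequencing adapters to it, and a peak is a stretch where such cuts pile up. The peaks of 6 libraries on chromosomes 1 to 19 were merged wherever they shared 1 bp or more, which gave 45562 regions, of which 23702 held a peak from all 6 libraries. A region was a member if it held a peak in all 6, if its midpoint lay inside a protein-coding gene, and if that midpoint was more than 1 kb from every protein-coding gene end in the GRCm38 annotation. In all, 6964 regions met the rule, out of 16918 regions at such places (41.2%). They were 29.4% of all regions with a peak in every library, and they lay in 4080 of 20665 protein-coding genes (19.7%). Presence of a peak in all 6 lists is what chose these regions, so it is described and not tested.

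The libraries came from retinas of C57BL/6 embryos at E14.5 (embryonic day), 3 from Atoh7 +/+ animals (wild type) and 3 from Atoh7 SE/SE animals, which carry a mutant Atoh7 shadow enhancer on both alleles. The Atoh7 protein is a bHLH transcription factor that retinal precursors need to become ganglion cells. The mutation is in the germ line, each library used the retinal pair of 1 animal, and all cells of the dissociated retina entered the assay. A region open in few cells and a region weakly open in many cells therefore cannot be told apart. Wild-type libraries were amplified for 17, 18 and 19 PCR cycles and SE/SE libraries for 15, 16 and 16, so cycle number and genotype cannot be told apart either.

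The deposited lists held 27873 to 34797 peaks for wild type and 39115 to 44242 for SE/SE, and the reads behind them are unknown. The labelled tissue was checked by peaks within 1 kb of the ends of marker genes. Of 8 neural retina markers, 7 or 8 had such a peak in each library, and all 7 ganglion cell markers had one in each. Of 7 pigment epithelium markers, 3 had a peak in all 6 libraries and 4 in none, and of 6 microglia and blood markers 1 had a peak and 5 had none. Lens and endothelial markers each had 2 of 7 in all 6 libraries and 4 of 7 in none. Mesenchyme markers were at 4 to 7 of 7 in the different libraries. A peak at a gene end does not show that the gene is expressed, and what part other cells had in the regions was not tested.

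Open chromatin inside a gene is known to come in several forms. Some of it marks an alternative promoter, from which a shorter or differently spliced transcript of the same gene begins. Other stretches are intronic enhancers, which bind transcription factors and act on the host gene or on a neighbour, or sites of insulator proteins. Promoters of vertebrate genes often lie in CpG islands, stretches rich in the dinucleotide CpG that stay unmethylated and tend to be open in many cell types, while enhancers are usually poorer in CpG and more cell-type restricted.

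A table of RefSeq start sites (GRCm38.p6) made it possible to ask which members lie over a start inside the host gene. An internal start was a start more than 1 kb from both ends of its gene, taken with a window from 250 bases before it to 50 bases after it. The table covers 18 of the 19 chromosomes, and on these 5565 of 6738 members (82.6%) have a host in the table. Of those 5565, 1298 (23.3%) overlapped the window of an internal start. Of 7764 intragenic regions that had a peak in 1 to 5 libraries and a host in the table, 210 (2.70%) did so. The members are wider, with a median of 476.5 bp against 178 bp, and a wider region meets a window more easily. Among regions of 200 bp and more but under 400 bp, the shares were 6.27% of 1881 members and 2.99% of 2407 others. Peak number per region is what chose the members, so these shares are given as a description. The start sequences below show the 2 kinds of internal start within 1 gene, one under a member and one with no peak in any library, for a transcription factor of neurons (Foxp1), a synaptic adhesion protein (Nrxn3) and a homeobox factor of retinal precursors and photoreceptors (Otx2). They were picked after their values were seen. Each is the 250 bases before the start, 5′ to 3′ on the strand of the gene, from RefSeq (GRCm38.p6), with every CpG in capitals.
Foxp1 start under a member, chr6:99028299-99028548, - strand: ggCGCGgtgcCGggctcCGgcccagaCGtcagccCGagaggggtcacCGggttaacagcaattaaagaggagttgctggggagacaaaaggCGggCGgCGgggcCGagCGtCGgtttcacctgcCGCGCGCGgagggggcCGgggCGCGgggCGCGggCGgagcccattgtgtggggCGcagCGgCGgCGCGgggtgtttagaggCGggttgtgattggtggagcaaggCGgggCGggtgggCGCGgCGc
Foxp1 start with no peak, chr6:99266516-99266765, - strand: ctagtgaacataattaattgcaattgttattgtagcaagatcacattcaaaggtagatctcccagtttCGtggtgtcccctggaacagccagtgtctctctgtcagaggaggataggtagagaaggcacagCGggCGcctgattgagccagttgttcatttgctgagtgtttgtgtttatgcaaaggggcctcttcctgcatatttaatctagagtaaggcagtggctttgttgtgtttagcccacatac
Nrxn3 start under a member, chr12:89812233-89812482, + strand: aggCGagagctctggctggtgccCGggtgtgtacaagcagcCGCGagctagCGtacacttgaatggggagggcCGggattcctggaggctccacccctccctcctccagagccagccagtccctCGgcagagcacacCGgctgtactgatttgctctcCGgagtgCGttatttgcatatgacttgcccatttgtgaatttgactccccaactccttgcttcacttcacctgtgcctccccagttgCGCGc
Nrxn3 start with no peak, chr12:88953140-88953389, + strand: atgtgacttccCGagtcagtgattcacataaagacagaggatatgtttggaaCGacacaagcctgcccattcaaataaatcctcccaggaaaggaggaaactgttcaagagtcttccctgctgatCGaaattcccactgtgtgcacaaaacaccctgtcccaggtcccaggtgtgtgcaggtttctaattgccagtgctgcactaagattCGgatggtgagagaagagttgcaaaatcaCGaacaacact
Otx2 start under a member, chr14:48665110-48665359, - strand: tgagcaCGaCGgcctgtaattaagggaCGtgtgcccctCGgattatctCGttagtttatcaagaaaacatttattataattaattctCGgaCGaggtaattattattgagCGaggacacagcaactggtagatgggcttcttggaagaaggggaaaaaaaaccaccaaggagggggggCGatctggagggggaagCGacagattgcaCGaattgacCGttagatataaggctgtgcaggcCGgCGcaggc
Otx2 start with no peak, chr14:48662735-48662984, - strand: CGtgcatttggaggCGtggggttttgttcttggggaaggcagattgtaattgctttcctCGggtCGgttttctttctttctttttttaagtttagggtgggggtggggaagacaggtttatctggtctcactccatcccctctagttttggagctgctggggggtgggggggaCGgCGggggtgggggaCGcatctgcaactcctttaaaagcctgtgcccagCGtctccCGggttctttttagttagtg

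At Foxp1 the stretch before the open start held 34 CpG and the one before the start without a peak held 3. At Nrxn3 the counts were 12 and 5. At Otx2 they were 14 and 9, so the gap was narrow there and the open start was the less GC-rich of the pair, at 48.4% against 53.6% G and C. A further pair of starts under members belongs to regulators of the retinal precursor pool. Pax6 encodes the paired and homeodomain factor of eye development and is known to use more than 1 promoter. Rbpj encodes the DNA-binding protein through which Notch signals act on genes.
Pax6 internal start, chr2:105682213-105682462, + strand: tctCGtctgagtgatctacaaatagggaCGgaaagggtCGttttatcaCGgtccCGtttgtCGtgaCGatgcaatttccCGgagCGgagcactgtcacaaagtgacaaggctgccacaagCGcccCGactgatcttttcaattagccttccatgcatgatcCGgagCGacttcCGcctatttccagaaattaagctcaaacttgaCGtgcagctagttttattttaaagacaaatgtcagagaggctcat
Rbpj internal start, chr5:53590236-53590485, + strand: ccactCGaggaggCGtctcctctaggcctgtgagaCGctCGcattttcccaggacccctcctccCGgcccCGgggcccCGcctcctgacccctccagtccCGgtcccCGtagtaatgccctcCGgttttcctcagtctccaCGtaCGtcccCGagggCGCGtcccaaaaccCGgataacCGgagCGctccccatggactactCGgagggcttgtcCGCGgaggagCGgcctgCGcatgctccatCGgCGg

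The Rbpj stretch held 25 CpG and the Pax6 stretch 15, at 68.4% and 47.6% G and C. These few starts were picked, so the counts were also taken over all internal starts. Of 3869 internal starts, 1526, in 1229 genes, lay under a member, 1923 had no peak in any library, 227 lay under a region with a peak in 1 to 5 libraries, and 193 under another region found in all 6. The windows under members held a median of 21 CpG per 300 bases (quartiles 13 and 30), and those with no peak held 4 (2 and 6). Windows with 15 or more CpG made up 71.0% of the first kind (1083) and 3.12% of the second (60), against 48.1% of all 20085 start windows of protein-coding genes. Windows under regions found in 1 to 5 libraries were in between, at a median of 12 CpG. Median GC content was 63.0% under members and 49.3% where no peak was found. The same order held inside single genes. In 185 genes with both kinds of internal start, the one under a member had more CpG in 171, equally many in 4 and fewer in 10, with medians of 20 and 4.5.

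**Figure D1:**
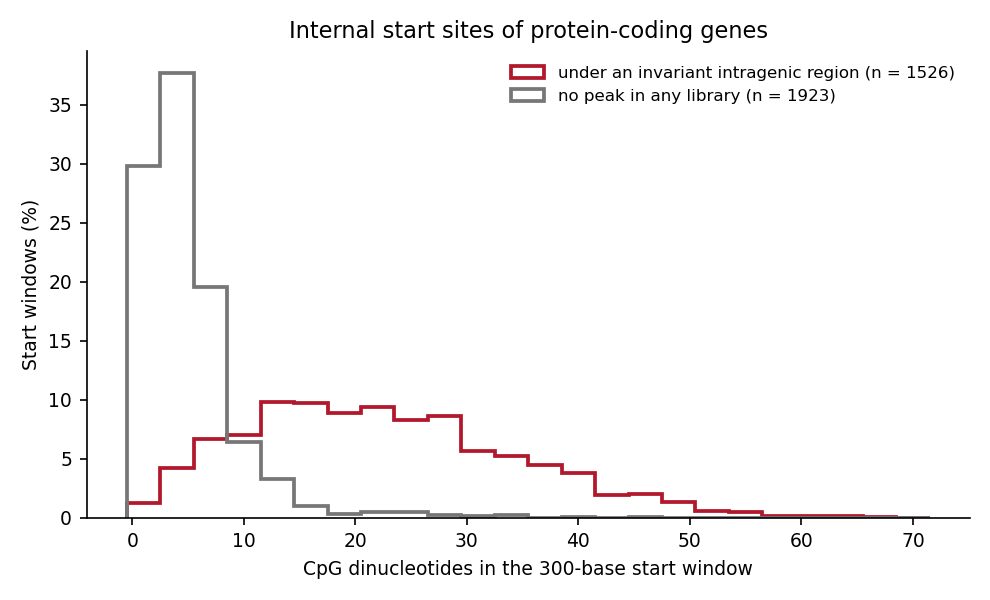
Number of CpG dinucleotides in the 300-base window of internal start sites (x axis) against the share of windows (y axis, %), for 1526 windows under an invariant intragenic region and 1923 with no peak in any library. The windows without a peak pile up at low counts (median 4), and those under a region spread widely around a median of 21.

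Short binding motifs were searched in the same windows, on both strands, as letters only. The E-box CAGCTG, the form bound by many proneural factors, was in 16.7% of windows under members, 20.02% of windows with no peak and 15.6% of all start windows. A second E-box, CAGATG, was in 11.9%, 19.0% and 14.6%. The homeodomain core TAATTA was in 2.36%, 5.72% and 4.48%, and TAATCC, the form preferred by Otx and Crx factors, in 5.18%, 9.88% and 6.42%. The Sox forms were likewise less frequent under members: ACAAAG was in 14.0% against 23.5% and ACAATG in 6.95% against 15.3%, with 16.6% and 10.4% of all starts. The TEAD form GGAATG was in 11.99%, 18.9% and 13.4%, and the AP-1 form TGANTCA in 4.46%, 10.7% and 7.06%. The motif of the insulator protein CTCF was found in the other order, in 1.05% of windows under members, 0.260% of those with no peak and 0.578% of all starts, which is 16, 5 and 116 windows. It was in 4 of the 227 windows under regions found in 1 to 5 libraries (1.76%) and in 4 of the 193 under other regions found in all 6 (2.07%). In those 227 windows CAGCTG (56 windows, 24.7%) and TAATTA (21 windows, 9.25%) were more frequent than in windows with no peak. CAGATG (16.7%), TAATCC (4.41%), ACAAAG (17.6%), ACAATG (9.69%), GGAATG (15.4%) and TGANTCA (4.41%) were less frequent there than in windows with no peak. The 193 windows had CAGCTG in 18.7% and TAATTA in 1.55%. The RFX motif was in 0.852%, 0.832% and 1.01%. The palindromic NFI motif was in 0 of the 1526 windows under members, 1 window with no peak and 7 of all start windows. Windows of neighbouring starts can overlap, and so can the motifs. The motifs rich in A and T were searched in windows with a median of 63.0% GC under members, 49.3% where no peak was found and 57% over all starts, and the part of base composition in these shares was not tested.

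The strength of a member was read from the rank of its highest peak within each library's own list, by the deposited signal value. That value grows with peak width, and the lists differ in length, so a percentile is a place within 1 list and a difference of percentiles between libraries shows no change. The median member stood at the 50.1, 55.5 and 43.4 percentile of the wild-type lists 1, 2 and 3 and at 60.9, 64.3 and 65.5 in the SE/SE lists. The typical member was thus a middling peak in every list. Regions found in all 6 libraries at gene ends, which hold most promoters, had medians of 76.3, 78.7 and 73.5 in wild type and 80.9, 82.5 and 83.0 in SE/SE. Regions found in all 6 outside genes, more than 1 kb and at most 100 kb from a gene end, had 44.6, 49.6 and 37.2, and 55.2, 58.8 and 60.5. In each of the 6 lists the members ranked between those 2 classes.

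Members ranked below gene ends by 22.5 ± 4.93 percentile points (SD, n = 6 libraries, median of members minus median of gene ends -22.5, range -30.1 to -17.5; exact two-sided sign-flip permutation p = 0.03125, adjusted over 5 tests 0.0391). They ranked above the regions outside genes by 5.63 ± 0.401 points (SD, n = 6, range 5.00 to 6.19, higher in 6 of 6; exact permutation p = 0.03125, adjusted 0.0391). That p is the smallest that 6 libraries can give. In all tests of percentiles the 6 libraries were read at the same regions, so neither p nor SD measures the spread over regions. These SDs are over lists of unlike length. With lists of equal length the difference to gene ends was -26.1 ± 0.938 points (SD, n = 6). The difference to regions outside genes was then 6.53 ± 0.921 points (SD, n = 6). The 1298 members over an internal start stood apart from the rest. Their median percentiles were 74.2, 77.5 and 71.5 in wild type and 80.0, 82.0 and 82.2 in SE/SE, against 45.4, 51.4, 38.3, 57.6, 61.3 and 62.6 for the other 5666 members. Of these 5666, 4267 had a host in the start table, and in the rest a start would go unseen. The 4267 had medians of 44.5, 50.7, 37.5, 56.8, 60.6 and 61.96. The difference was 25.2 ± 5.21 points (SD, n = 6, range 19.6 to 33.2; exact permutation p = 0.03125, adjusted 0.0391) against the 5666 and 25.9 points (range 20.3 to 34.0; exact permutation p = 0.03125) against the 4267, both added after the data were seen. Their peaks were also wider, at a mean library median of 623 bp against 268 bp in wild type, and the part of width in the rank was not tested. The 4267 ranked above the regions outside genes by 1.03 points (range -0.0191 to 1.79, higher in 5 of 6; exact permutation p = 0.0625), in place of 5.63 for all members, and this no longer passed 0.05. The 1737 regions found in all 6 libraries beyond 100 kb had medians of 45.1, 51.6, 37.9, 57.5, 60.5 and 63.1. The 4267 stood above these only in SE/SE 2, and this was not tested.

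**Figure D2:**
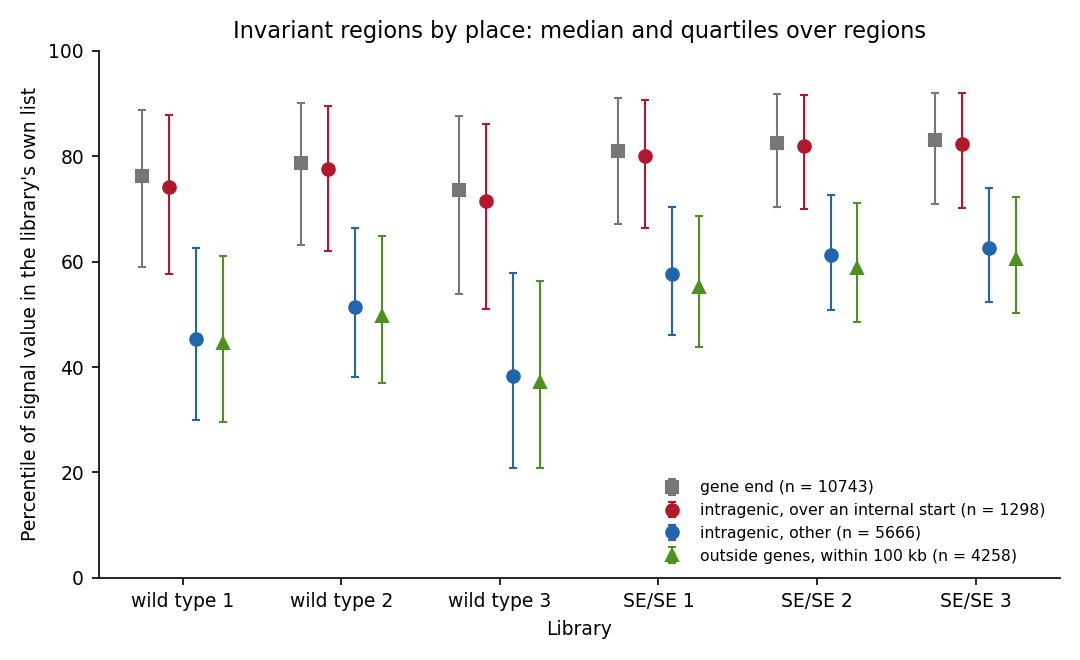
Percentile of the deposited signal value within each library's own list (y axis) for regions found in all 6 libraries, by library (x axis): points are medians and bars the quartiles over regions, for 10743 gene-end regions, 1298 members over an internal start, the other 5666 members (hosts outside the start table included) and 4258 regions outside genes. Members over an internal start lie close to the gene-end regions in every list and the other members lie close to the regions outside genes.

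Of the 6964 members, 2852 (41.0%) were above the 50th percentile of all 6 lists and 987 (14.2%) were below it in all 6. In all, 401 (5.76%) reached the top 10% of every list, and 234 of the 327 of these with a host in the start table (71.6%) lay over an internal start. Among the low members, 49 of the 784 with a host in the table (6.25%) did. A member's percentile spanned a median of 22.1 points over the 6 lists (quartiles 13.0 and 32.4). Across members, Spearman's rho of percentiles between 2 libraries was 0.945 to 0.978 within a genotype and 0.922 to 0.957 between genotypes. These are correlations across regions, which are not replicates, and width is shared by both lists.

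Members are ordered here by the lowest of their 6 percentiles, and the strongest member of a gene is the one highest by that measure. The strongest member was in Myo3a, a class III myosin known from hair cells and photoreceptors (chromosome 2, 22587243 to 22590247). It ranked 5 in each of the 6 lists. It was 3005 bp wide, lay 29507 bp from the gene end and did not overlap an internal start in the table. Its signal values were 16831.7, 17161.6 and 14317 in wild type and 15919.9, 14861.6 and 16368.7 in SE/SE. No filter for repeated sequence was applied to the deposited lists here, and the part of such sequence in these values was not tested. The next member, in Cpeb2 (a regulator of mRNA polyadenylation and translation, chromosome 5, 43232290 to 43235604), was wider at 3315 bp but had signal values of 4771 to 5580 in wild type libraries 1 and 2 and 4334 in library 3, with 6156 to 7308 in SE/SE. It ranked 14 to 27 in the lists. The third was the Rbpj member over the start printed above (chromosome 5, 53588918 to 53591579), which ranked 30 to 36.

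The next strong members were in Kat6b (a histone acetyltransferase, ranks 34 to 47), Ywhaz (a 14-3-3 adaptor protein, ranks 51 to 73), Nectin3 (a cell adhesion protein, ranks 41 to 75), Gpc6 (a glypican of the cell surface, ranks 54 to 95), Vapa (a membrane contact protein of the endoplasmic reticulum, ranks 71 to 96), Epc2 (a subunit of histone acetyltransferase complexes, ranks 71 to 123) and Fbxl17 (a ubiquitin ligase subunit, ranks 79 to 122). The members in Rbpj, Nectin3, Vapa and Fbxl17 lay over an internal start. Those in Kat6b, Nectin3, Gpc6 and Epc2 had their midpoint 1068 to 1262 bp from a gene end, just past the 1 kb limit, and those in Kat6b and Nectin3 were wide enough to hold the gene end itself, as were 8 of all 6964 members (0.115%). Those in Myo3a, Cpeb2 and Ywhaz were neither near an end by that measure nor over an internal start in the table.

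The weakest members were narrow. The member in Trip4, a transcriptional coactivator, was 160 bp wide and ranged from the 1.92 to the 19.7 percentile. Members in Itpkb (an inositol trisphosphate kinase, 109 bp), Slc9a9 (an endosomal sodium-proton exchanger, 283 bp) and Pcdh17 (a protocadherin, 155 bp) had highest percentiles of 22.6 to 24.95. Just inside the 1 kb limit, 300 members over 1000 and up to 1200 bp from a gene end had library medians of 53.5 to 71.7, and 323 regions just outside it, over 800 and up to 1000 bp from an end, had 57.0 to 73.4. The other edge of the rule is the number of libraries. There were 1546 intragenic regions with a peak in 5 of 6 libraries, with library medians of 7.91 to 40.1 where a peak was present, and 1242 of them (80.3%) lacked a peak in wild type 3 alone, the library with the shortest list.

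Members were spread over many genes. Of the 4080 hosts, 2698 (66.1%) had 1 member, 200 had 5 or more and 27 had 10 or more, and those 27 genes held 374 members (5.37%). Hosts were long, with a median of 58.8 kb against 13.5 kb for other protein-coding genes. Of genes of 2 to 10 kb, 7.11% were hosts, and of genes over 300 kb, 82.4% were. Per megabase of gene the order was the opposite, from 22.1 members in genes of 2 to 10 kb to 5.19 in genes over 300 kb. Over the 943 Mb of gene interior where a member could lie, there were 7.39 members per Mb, against 5.79 regions found in all 6 libraries per Mb of the 735 Mb outside genes and within 100 kb of a gene end. Regions found in any library followed the same order, at 17.9 and 14.7 per Mb.

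The gene with most members was Gse1 (chromosome 8, 120228501 to 120581383), which encodes a coiled-coil protein found with histone deacetylase complexes. It held 30 members out of 57 intragenic regions, or 8.50 per 100 kb. The median over its members was 46.3, 54.7 and 43.2 in the wild-type lists and 63.0, 66.5 and 67.7 in the SE/SE lists, close to the medians over all members. Its strongest member (120425159 to 120426172, 155601 bp from the gene end) was at 90.1, 88.0 and 85.1 in wild type and 91.3, 91.4 and 92.4 in SE/SE. Next came Macrod2, a mono-ADP-ribosylhydrolase gene of 1998 kb, with 22 of 39 regions but 1.10 per 100 kb.

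Celf4, a neuronal RNA-binding protein, held 19 of 32 regions, and with 6.86 per 100 kb it was the densest of these long hosts after Gse1. Its members had library medians of 52.2 to 72.8. Msi2, an RNA-binding protein of stem and progenitor cells, held 17 of 37, Frmd4a (a FERM-domain scaffold of cell polarity) 17 of 29, and Tenm3, a teneurin that takes part in the wiring of retinal ganglion cells, 17 of 36. Pde4d (a cyclic AMP phosphodiesterase) held 15 of 24, Lrrc4c (a netrin-G ligand at synapses) 15 of 27 and Ptprn2 (a dense-core vesicle protein) 14 of 27. Maml3, a Notch co-activator, held 13 of 24, Nfia, a nuclear factor I transcription factor of late precursors and glia, 13 of 31, and Auts2, a regulator of neuronal development, 13 of 28. These 12 genes had 41.9% (Nfia) to 62.5% (Pde4d) of their regions in all 6 libraries, and since they were picked for their number of members nothing is read from that share beside the 41.2% over all.

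The densest hosts, among genes with 4 or more members, were short. These 6 genes were picked for their density of members, so nothing is read from their shares beside the 41.2% over all. Bbc3, which encodes the pro-apoptotic protein Puma (chromosome 7, 16308398 to 16318334), had all of its 5 regions in every library, or 50.3 per 100 kb. Of these 5 members, 2 lay over internal starts. Six3 (chromosome 17, 85613608 to 85626191), a homeobox gene needed for the eye field and retina, had 5 of 6 regions, or 39.7 per 100 kb. Its strongest member, over an internal start at 85620602 to 85621620, stood at 78.5, 76.3 and 72.8 in wild type and 78.9, 79.0 and 81.5 in SE/SE. Its weakest, at 85620096 to 85620463, stood at 21.0, 31.7, 18.7, 25.5, 46.8 and 51.4. The 2 lie next to each other in 1 gene and keep their order in all 6 lists.

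Kdm6b, the gene of a demethylase that removes the repressive H3K27 mark, held 8 of 9 regions (36.6 per 100 kb). Its strongest member, at 69418482 to 69419375 on chromosome 11, was at 80.7, 81.0 and 75.8 in wild type and 81.4, 82.6 and 84.6 in SE/SE. Pax6 held 8 of 16 (27.1 per 100 kb), Nr4a2, a nuclear receptor of neurons, 4 of 6 (23.3), and Ubtf, a factor of ribosomal RNA transcription, 4 of 5 (21.0). In Nr4a2 the member at 57114212 to 57115446 on chromosome 2 was at 91.9, 93.6 and 89.2 in wild type and 93.8, 95.1 and 95.0 in SE/SE, while the one at 57111200 to 57111411 was at 13.1, 20.2, 1.4, 34.6, 33.2 and 39.6. In Ubtf 3 of the 4 members lay over internal starts, the strongest at 88.7 to 96.1.

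**Figure D3:**
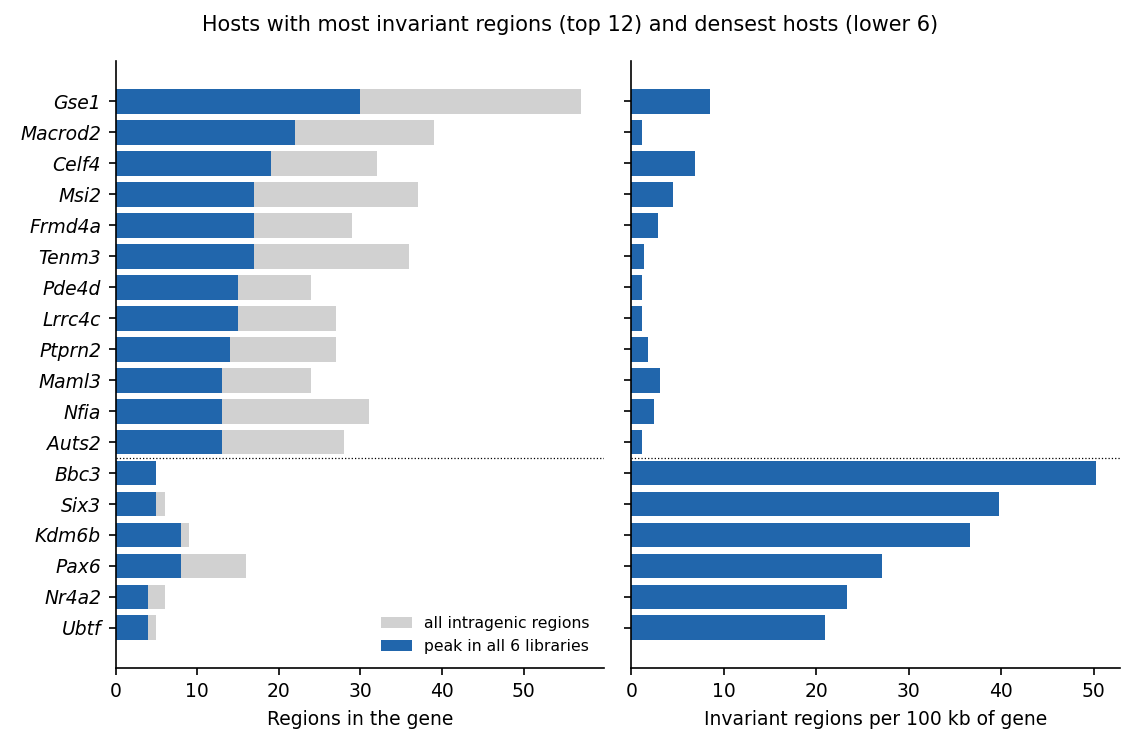
Left, number of intragenic regions per gene (x axis), with those holding a peak in all 6 libraries in blue and all regions in grey; right, members per 100 kb of gene (x axis), for the 12 hosts with most members (above the dotted line) and the 6 densest hosts with 4 or more members. Gse1 leads in number with 30 of 57 and Bbc3 leads in density with 50.3 per 100 kb.

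Pax6 shows how unlike each other the members of 1 gene are (chromosome 2, 105668896 to 105698410). The strongest member, at 105674087 to 105675779, was at 90.6, 91.0 and 91.2 in the wild-type lists and 91.8, 91.6 and 92.7 in the SE/SE lists, and is 1693 bp wide. The region over the internal start printed above, at 105681972 to 105682708, stood at 76.2, 80.8, 78.0, 79.4, 79.0 and 82.1, and its neighbour at 105680286 to 105681048 at 72.6, 72.7, 71.4, 74.1, 77.7 and 78.1. These 3 kept nearly the same place in every list. The member at 105673773 to 105673980, which is 208 bp wide and lies just before the strongest one, was at 6.6, 28.1, 19.9, 25.5, 36.4 and 39.3, the lowest of the 8 by its median. The other 4 had medians of 32.1 to 65.9.

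Foxp1 (chromosome 6, 98925342 to 99522746) gives the same contrast over a longer gene. Its member over the open start printed above, at 99027837 to 99029092, was at 93.2, 94.6 and 93.3 in wild type and 94.6, 95.0 and 95.5 in SE/SE, the highest of its 8 in every list. A second member over a start, at 99520438 to 99522372 and 1341 bp from the gene end, was at 45.1, 60.6, 48.2, 74.9, 84.2 and 70.8. The weakest of the 8 by its median, at 98994071 to 98994590, was at 25.7, 36.1, 11.4, 49.6, 55.3 and 53.6. Nrxn3 spans 1612 kb and held 10 of 28 regions. Its member over the start printed above, at 89811740 to 89812835 on chromosome 12, was at 88.7, 89.4 and 83.5 in wild type and 89.9, 92.2 and 90.7 in SE/SE, again the highest of its gene in each list. The open Otx2 start lay under a member of 557 bp (chromosome 14, 48664967 to 48665523), which stood at 38.8, 58.6, 46.9, 62.5, 65.6 and 67.2, so an open internal start can also be a middling peak.

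**Figure D4:**
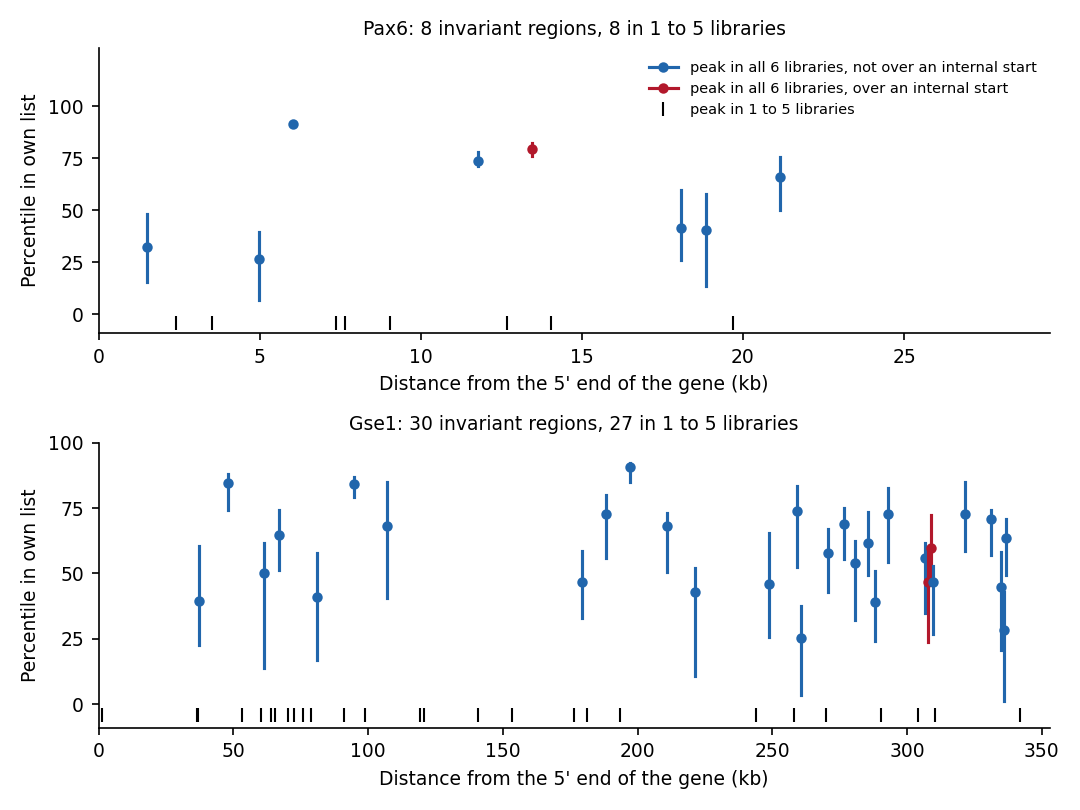
Members along Pax6 (upper) and Gse1 (lower) by distance of their midpoint from the 5' end of the gene (x axis, kb) and percentile in each library's own list (y axis): points are medians and bars run from the lowest to the highest of the 6 libraries, and ticks at the bottom mark regions with a peak in 1 to 5 libraries. In Pax6 3 members stay above the 70th percentile in all lists, and in Gse1 the 30 members range widely in strength and are spread along the gene.

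By position, members leaned to the 5' end of their genes. Among hosts over 20 kb whose strand is in the start table (4786 of 5795 pairs of member and host, 82.6%), 1025 members (21.4%) lay in the first 10% of the gene. Each of the other 9 stretches of 10% held 7.63% to 10.1%. For regions found in 1 to 5 libraries the first stretch held 978 of 7001 (14.0%). The median position was 39.9% of gene length for members and 49.3% for the others. Among the 3760 of the 4786 that did not lie over an internal start, 617 (16.4%) were in the first stretch and the median position was 46.5%, nearer to the other regions. Measured to the nearer gene end, the median distance of a member was 14.0 kb (quartiles 3.36 and 52.1), and 898 (12.9%) were over 100 kb away. Neighbouring members in a host were a median of 19.7 kb apart, and 530 of 3007 such gaps (17.6%) were under 2 kb. An end of a long non-coding RNA gene was within 1 kb of 422 members (6.06%) and of 348 of 9954 other intragenic regions (3.50%).

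**Figure D5:**
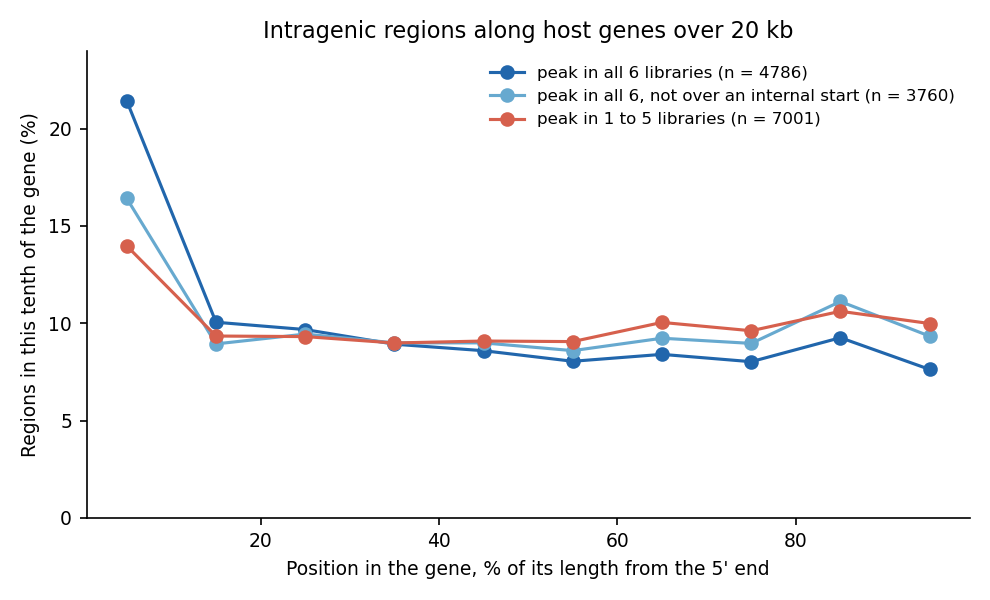
Share of intragenic regions (y axis, %) in each 10% stretch of gene length from the 5' end (x axis, % of gene length) in host genes over 20 kb, for 4786 members, the 3760 of them not over an internal start, and 7001 regions with a peak in 1 to 5 libraries. The first stretch holds 21.4%, 16.4% and 14.0% of them.

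The share of intragenic regions that were members was 53.4% at 1 to 2 kb from a gene end, 45.7% at 2 to 5 kb and 42.5% at 5 to 10 kb, and 35.9% to 38.7% in every class beyond 10 kb. Strength followed a similar course. The 3035 members at 1 to 10 kb had median percentiles of 55.0, 59.9 and 49.1 in wild type and 64.2, 67.8 and 68.7 in SE/SE, and the 1809 members over 50 kb away had 46.2, 52.2, 38.9, 58.9, 62.2 and 63.9. Near members ranked higher by 7.07 ± 2.16 points (SD, n = 6, range 4.81 to 10.2, higher in 6 of 6; exact permutation p = 0.03125, adjusted 0.0391). Internal starts moved with distance: of the members with a host in the start table, 323 of 874 at 1 to 2 kb (37.0%) lay over one, and 31 of 424 at 100 to 200 kb (7.31%). Among those with a host in the table and no internal start, near minus far was -0.0992 points (range -1.23 to 1.43, higher in 3 of 6; exact permutation p = 0.844), so the difference was not found there.

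The genotypes could be compared only in the width of the peaks inside members. The median width was 300, 348.5 and 269 bp in the wild-type libraries and 399, 442 and 449 bp in the SE/SE libraries, and the 2 groups did not overlap. The means were 306 ± 40.1 bp (SD, n = 3) and 430 ± 27.1 bp (SD, n = 3), a difference of 124 bp (exact two-sided permutation p = 0.1, the smallest that 3 against 3 allows). The ratio of 1.41 was also 1.41 for regions outside genes and 1.20 at gene ends. In bp the difference was 103 for regions outside genes and 123 at gene ends. SE/SE lists were also longer and had fewer PCR cycles, and these cannot be told apart from genotype. Every one of the 6964 members overlapped a peak in the authors' joint list of each genotype. Their median percentiles there were 86.7 (wild type) and 88.8 (SE/SE), but those lists rest on the same libraries. The joint lists hold 104991 and 120772 peaks, so these percentiles cannot be set beside those within the list of 1 library. Regions found in all 6 libraries had 93.3 and 94.1 there at gene ends, and 84.4 and 86.3 outside genes within 100 kb.

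Lists of genes grouped by role show where the members lie in pathways of the developing retina. Across all intragenic regions 41.2% were members and the median percentile of a member, taken over the 6 lists, was 58.1. Over all protein-coding genes 19.7% had a member, a share that rose with length (7.11% at 2 to 10 kb, 82.4% over 300 kb). Median gene length was 17.5 kb over all genes. By list it was 21.0 kb (retinal progenitor), 11.3 kb (neurogenesis), 19.2 kb (photoreceptor), 30.032 kb (signalling), 82.2 kb (chromatin) and 14.3 kb (cell cycle). What part length had in the share of genes with a member was not tested for any list. Of 28 retinal progenitor genes, 16 had a member, with 62 of 151 regions (41.1%) and a median percentile of 60.0. Besides Nfia and Pax6, Meis1, a homeobox factor of eye precursors, held 8 of 23. Its strongest, at 18944804 to 18945648 on chromosome 11, was at 84.4, 85.3 and 79.7 in wild type and 88.7, 88.4 and 89.1 in SE/SE. Of 39 neurogenesis and ganglion cell genes, 25 had a member (55 of 126 regions, 43.7%, median percentile 56.9). Here Ebf3, an early B-cell factor of differentiating neurons, held 8 of 14, Foxp1 8 of 19, and Gap43, a growth cone protein of ganglion cell axons, 4 of 8. Atoh7 had none, since at 1496 bp no point of it is more than 1 kb from both of its ends.

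Of 22 genes of photoreceptors and of amacrine and horizontal cells, 14 had a member (21 of 55 regions, 38.2%). They include Prox1, a homeobox gene of horizontal cells, with 3 of 4, Thrb, the thyroid hormone receptor of cones, with 3 of 4, and Nrl, the rod determination factor, with 2 of 2. The Nrl members had a median percentile of 32.9. Of 33 axon guidance and adhesion genes, 30 had a member (120 of 304 regions, 39.5%), led by the Slit receptor genes Robo2 (11 of 24) and Robo1 (10 of 25) and the ephrin gene Efna5 (10 of 20). Of 35 genes of neuronal channels and synapses, 29 had one (90 of 228, 39.5%), led by the synaptic adhesion genes Nlgn1 (11 of 21) and Nrxn3 (10 of 28). These 2 lists hold long genes, with median lengths of 276 and 302 kb against 17.5 kb over all genes.

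The signalling list (Notch, Wnt, Hedgehog, FGF and BMP) had members in 30 of 44 genes and in 68 of 131 regions (51.9%, median percentile 61.3). Ptch1, the Hedgehog receptor, held 5 of 8 with a median percentile of 80.4. Its strongest by the lowest of 6 percentiles, at 63567593 to 63568422 on chromosome 13, was at 89.0, 89.7 and 88.2 in wild type and 89.7, 89.2 and 89.6 in SE/SE. A wider one over an internal start, at 63564995 to 63566658, was at 80.1, 90.5 and 84.3 in wild type and 92.8, 94.5 and 94.7 in SE/SE, higher than the first in 4 of the 6 lists. Bmpr1b, a BMP receptor, held 6 of 10 and Tcf7l1, a transcription factor of the Wnt pathway, 5 of 10. Of 32 chromatin regulators, 17 had members (49 of 104 regions, 47.1%, median percentile 69.0), among them Kdm6b and Chd7 (a chromatin remodeller, 7 of 14). Of 27 cell cycle genes, 7 had members (14 of 22 regions, 63.6%), among them the cyclin gene Ccnd3 (4 of 5), the kinase gene Cdk6 (3 of 4) and the inhibitor gene Cdkn1a (2 of 3).

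For genes that mark cell types other than neural retina, the share of genes with a member ran from 10% (lens) to 40% (endothelial), around the 19.7% over all protein-coding genes. Of 11 pigment epithelium genes 2 had one (3 of 12 regions, 25%), namely Mitf, the pigment cell regulator, with 2, and Best1, a chloride channel gene, with 1. Of 10 lens genes, Bfsp1, a lens filament protein, had 3 of 3 regions and the other 9 had no intragenic region at all. Of 10 endothelial genes, 4 had one (4 of 15, 26.7%), among them Sox17, Esam and Egfl7. Of 9 microglia and blood genes, 2 had one (3 of 11, 27.3%), Runx1 with 2 and Ptprc with 1. Of 10 mesenchyme genes, 2 had one (2 of 9, 22.2%), Pdgfra and Prrx1. The single members of Sox17, at 30.03 to 63.6, and of Ptprc, at 33.1 to 57.8, were middling peaks.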

How the data were processed

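ATAC-seq of 6 retinal libraries (3 Atoh7 +/+, 3 Atoh7 SE/SE) was analysed from peak lists that the authors deposited, 1 per library and 2 joint lists. Tools listed in the submitters' processing notes, with no roles, are Genrich 0.5, BWA, cutadapt, limma and bedtools 2.27.0, on build GRCm38. Trimming, Tn5 shift, duplicate removal and scaling are not given in the sources used here. Per peak, the authors deposited a signal value, a −log10 p-value and a score. The authors' signal value, tied to peak width, was used only to rank peaks inside 1 list. The deposited −log10 p served the stricter lists only. The deposited score was not used. Read depth is unknown, so no counting interval is given.

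A percentile is the share of all peaks in the library's list at or below the value, for the highest peak of a region. Gene positions came from RefSeq GRCm38.p6. Positions count from 1. Differences of library medians were tested by exact sign-flip over 64 patterns, and widths over 20 assignments, with Benjamini-Hochberg adjustment over 5 tests. Named genes were the 12 hosts with most members, the 6 densest with 4 or more, the hosts of the 10 strongest and 5 weakest members, the top 3 per list and Atoh7, though not every gene this takes is reported here; single regions and the Otx2 starts were chosen after their values were seen. Of 314 entries in the 13 gene lists, 310 matched chromosomes 1 to 19. Members and lists were chosen with earlier results of these data known. Alternatives covered stricter and equal-length lists, merging, coverage, the gene-end distance, chromosome X and each library left out. Python 3.11.15, numpy 2.4.6, pandas 2.3.3, scipy 1.17.1 and matplotlib 3.10.9 were used. Tested on simulated data, the selection found 586 of 586 planted regions. These lay far apart and had a peak in all 6 lists by design, so this checks the code and not its accuracy on crowded peaks.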

Additional observations from a re-analysis of the deposited data

How the results depend on the processing

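Of 91 recomputed values, 1 reversed. With only peaks above the median −log10 p of the shortest list, 2754 regions were members in place of 6964, the near-minus-far difference rose to 15.2 points and the difference to gene ends shrank to -14.5. The near-minus-far difference was also 10.7 points with a 500 bp limit and 1.07 points (exact permutation p = 0.0625) without members over internal starts. With only hosts in the start table and those members left out, it reversed to -0.0992 points (exact permutation p = 0.844). The difference to regions outside genes was then 1.03 points (exact permutation p = 0.0625), against 1.75 points (p = 0.03125, same test) when hosts outside the table stay in. The settings on internal starts were added after the data were seen. With lists of equal length, the difference for internal starts was 29.4 ± 0.542 points (SD, n = 6 libraries), in place of 25.2 ± 5.21. With a peak required to cover 50% of a region, the width difference was 72.2 bp. With each library left out in turn, the number of members was 6973 to 8206, the highest without wild type 3. The differences were 5.33 to 5.76 (regions outside genes), -24.9 to -22.5 (gene ends), 6.81 to 7.41 (near minus far) and 25.1 to 27.8 points (internal starts). Each of those values has an exact permutation p of 0.0625, the smallest that 5 libraries can give, so they say nothing of stability. The width difference was 102.5 to 144.8 bp. With the replicate block it was 124 bp (exact p = 0.25, the smallest 3 pairs allow). The labels do not say that same-numbered libraries share more than a number. Their deviations had correlations of -0.0127, 0.0509 and -0.0867 across regions, which are not replicates and cannot show whether a litter or day was shared. The other values kept their direction and their side of the threshold. Without read counts, differences of strength between genotypes could not be measured, and members with a host outside the start table count as not over a start unless stated.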

Other observations

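A few members could not be given to 1 gene. Of the 6964, 70 lay in more than 1 protein-coding gene, and 3 lay in more than 3, all of them in the clustered protocadherin genes, which encode cell-surface proteins of neuronal self-recognition and share their last exons. The pair in the alpha cluster each fell inside 17 annotated genes and the one in the gamma cluster inside 24. The strongest of the 3 was at 48.4, 56.6 and 52.4 in the wild-type lists and 66.9, 69.4 and 70.5 in the SE/SE lists. The second alpha region was at 21.9, 36.4 and 10.0, and 53.5, 50.7 and 57.4. The gamma region was at 32.6, 46.5 and 32.4, and 49.2, 52.7 and 45.1. By chromosome, members made up 23.9% (chromosome 13) to 31.7% (chromosome 14) of the regions found in all 6 libraries.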
